A study of Mus musculus with 30 samples.

Results

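Glycolysis and hypoxia genes were followed as a set of 34 genes in CD4 T helper cells sorted from mouse spleen. The genes were listed by symbol, with earlier results of these data known. The set holds 2 glucose transporters, 2 hexokinases, 8 genes of upper glycolysis, 5 genes of lower glycolysis, 4 lactate genes, 1 pyruvate dehydrogenase kinase, 2 hypoxia-inducible factor subunits, 2 prolyl hydroxylases and 8 further hypoxia targets. They are 34 of the 55573 gene identifiers in the QuantSeq tables and of the 34002 named genes in the RNA-seq tables. All 34 passed the filter on low counts in RNA-seq, and 32 passed it in QuantSeq. The exceptions were Pgam1, listed in QuantSeq at 0 to 0.343 CPM (counts scaled to a common library size), and Bnip3, seen there at 16 CPM in 1 TH2 library and at 0.616 CPM in 1 Il4-/- library.

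The study compared type 2 helper (TH2) cells with follicular helper (TFH) cells and with cells it names TFH2. All mice were C57BL/6 and 8 weeks old, and OTII marks a T cell receptor transgene that most groups carried. QuantSeq, which counts the 3' ends of transcripts, covered TFH2 cells of IL-4BacTg x OTII Tg mice in CXCR5lo, CXCR5int and CXCR5hi gates (n = 2 each) and TFH cells of OTII Tg mice in the same gates (n = 3, 2 and 3), all sorted as CD4+CD45.2+ and PD1+. It also covered Bcl6KO cells of Bcl6f/fCd4cre x OTII Tg mice sorted as CD4+hCD2+ (n = 2), Il4-/- x OTII Tg cells sorted as CD4+ (n = 2), and TH2 cells of IL-4BacTg x OTII Tg mice sorted as CD4+hCD2+ (n = 4). In the Bcl6KO mice Cre is driven by Cd4, so the deletion is not limited to a helper subset. RNA-seq covered TFH cells of OTII Tg mice from the CXCR5hi PD1+ gate, TH2 cells of IL-4BacTg mice sorted as CD4+hCD2+, and naive CD4+CD62L+CD44-CD25- cells of wild type mice (n = 2 each). Genotype and gate therefore differ together with cell type in the comparisons of TFH or TH2 cells with each other and with naive cells, and these cannot be told apart. In RNA-seq, sex, read from the sex-linked transcripts given below, also differs between TFH hi cells and both other groups.

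QuantSeq libraries held 1834612 to 4442404 counts and RNA-seq libraries 36048137 to 107398014 counts. Replicates were far apart in QuantSeq (biological coefficient of variation 1.26) and close in RNA-seq (0.0879), and the labels do not say whether replicates came from separate mice, so p-values measure only the spread between these libraries. All groups held the T cell markers. QuantSeq TH2 libraries had Gata3 at 217 to 328 CPM, but the TH2 receptor gene Il1rl1 at 0 to 0.391 CPM, Il5 at 0, and Il4 at 0 in 3 libraries and 13.6 CPM in the other. RNA-seq TH2 libraries held Il1rl1 at 308 and 337 CPM. Of the targeted genes, Bcl6 read 6.76 and 25.5 CPM in Bcl6KO libraries, against 0.391 to 13.3 CPM in TH2 libraries, and Il4 read 0 and 1.03 CPM in Il4-/- libraries. With Bcl6 near 0 in the TH2 cells too, and 3' tags that may lie outside the deleted part, these values check neither label. Another pair of RNA-seq libraries, from IL-4BacTg x OTII Tg mice, goes against its labels in most TFH markers. The library labelled TFH2 CXCR5hi held Cxcr5 at 1.09, Bcl6 at 12.8 and Tox2 at 0.389 CPM, whereas the library labelled TH2 held Cxcr5 at 128, Bcl6 at 114 and Tox2 at 141 CPM. The TFH marker Icos went with the labels (224 CPM in that labelled TFH2, 141 in that labelled TH2). TH2 markers were split. Il4 (124 against 3.42 CPM), Il5 (22.8 against 4.51) and Il13 (64.6 against 21.4) were higher in the library labelled TH2. Gata3 (243 against 423 CPM), Il1rl1 (22 against 91.4) and Ccr4 (28.9 against 62.6) were lower there. Both libraries are described separately below and enter no comparison with the other groups.

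Glycolysis splits glucose into pyruvate, which cells either reduce to lactate or pass to mitochondria through pyruvate dehydrogenase. Hypoxia-inducible factor (HIF) raises the transporters, glycolytic enzymes and lactate genes when its alpha subunit escapes the prolyl hydroxylases that mark it for destruction. In T cells activation raises glycolysis also at normal oxygen, and HIF binds a short core, ACGTG or GCGTG, in its target promoters.

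Promoters are shown for the members on which the results below turn and that have an entry in the RefSeq promoter table (GRCm38.p6, 250 bases before to 50 after the start). Pdk1 and Mif were lower in TFH than in TH2 cells in both assays, and Ldha, Pgk1, Bnip3 and Egln3 are HIF targets of different roles that were far higher in TH2 than in naive cells. Capitals mark ACGTG or GCGTG on either strand (CACGT or CACGC when read on the printed strand).
Pdk1 (chr2:71872974-71873273, plus strand): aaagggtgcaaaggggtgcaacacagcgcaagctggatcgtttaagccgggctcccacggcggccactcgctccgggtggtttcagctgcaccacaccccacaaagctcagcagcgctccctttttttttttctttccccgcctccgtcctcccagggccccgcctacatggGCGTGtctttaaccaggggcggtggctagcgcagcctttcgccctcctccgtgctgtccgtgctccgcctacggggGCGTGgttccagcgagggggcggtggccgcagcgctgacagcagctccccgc
Mif (chr10:75860228-75860527, minus strand): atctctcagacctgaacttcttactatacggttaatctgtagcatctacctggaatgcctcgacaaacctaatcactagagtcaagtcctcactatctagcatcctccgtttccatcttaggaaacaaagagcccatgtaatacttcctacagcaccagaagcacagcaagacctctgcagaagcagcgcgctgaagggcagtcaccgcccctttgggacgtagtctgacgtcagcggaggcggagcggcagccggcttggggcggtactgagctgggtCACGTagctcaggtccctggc
Ldha (chr7:46845554-46845853, plus strand): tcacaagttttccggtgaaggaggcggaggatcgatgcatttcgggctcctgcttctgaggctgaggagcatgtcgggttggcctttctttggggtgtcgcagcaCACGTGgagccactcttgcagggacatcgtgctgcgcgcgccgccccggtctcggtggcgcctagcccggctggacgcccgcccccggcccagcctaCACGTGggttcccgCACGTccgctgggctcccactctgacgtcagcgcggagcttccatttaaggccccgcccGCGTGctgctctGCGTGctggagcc
Pgk1 (chrX:106186850-106187149, plus strand): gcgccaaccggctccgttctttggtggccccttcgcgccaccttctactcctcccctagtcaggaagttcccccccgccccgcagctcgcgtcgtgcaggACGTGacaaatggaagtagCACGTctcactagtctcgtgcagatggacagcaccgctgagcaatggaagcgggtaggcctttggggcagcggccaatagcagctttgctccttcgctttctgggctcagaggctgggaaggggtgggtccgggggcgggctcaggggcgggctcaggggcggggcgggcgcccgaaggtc
Bnip3 (chr7:138909457-138909756, minus strand): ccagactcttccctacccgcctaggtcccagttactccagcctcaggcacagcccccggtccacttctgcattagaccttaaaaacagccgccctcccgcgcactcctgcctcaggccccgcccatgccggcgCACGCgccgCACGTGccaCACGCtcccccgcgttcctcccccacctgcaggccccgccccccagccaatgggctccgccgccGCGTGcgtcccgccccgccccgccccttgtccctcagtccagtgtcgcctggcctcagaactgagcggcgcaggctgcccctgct
Egln3 (chr12:54203825-54204124, minus strand): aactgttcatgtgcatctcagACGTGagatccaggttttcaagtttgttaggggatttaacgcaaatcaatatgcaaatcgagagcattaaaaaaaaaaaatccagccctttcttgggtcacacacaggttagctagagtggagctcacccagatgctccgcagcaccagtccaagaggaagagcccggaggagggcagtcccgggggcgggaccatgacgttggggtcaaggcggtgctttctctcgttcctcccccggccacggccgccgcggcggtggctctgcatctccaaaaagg

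The Ldha promoter shown held 5 matches to ACGTG and 2 to GCGTG, Bnip3 2 and 3, Pgk1 2 and 0, Mif and Egln3 1 and 0 each, and Pdk1 0 and 2. Ldha and Pdk1 each have a further promoter entry that is not shown, with 0 and 2 matches for Ldha and 0 and 0 for Pdk1. A palindromic CACGTG counts as 2 overlapping matches to ACGTG. In all, 31 members had 45 promoter entries. Slc2a3, Epas1 and Ndrg1 had none. ACGTG was found in 60% of the 45 entries, against 19.6% of all 32851 entries in the table, and GCGTG in 57.8% against 32.4%. At least 1 of the cores stood in 37 of the 45 entries (82.2%), against 43.8% of all entries. The list holds known HIF targets, so a higher share of the HIF core follows in part from how it was made. Entries of a gene can overlap, as for Eno1, and the background was not matched for base composition. A match is a run of letters and does not show that HIF was bound.

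In RNA-seq, TH2 cells held more of most of these transcripts than naive cells, and TFH CXCR5hi cells lay between them or at the naive level for many. Levels are CPM of the most abundant transcript of each gene, and they compare libraries, not genes. Among the glucose transporters, Slc2a1, which encodes GLUT1, had 59.3 and 57.9 CPM in TFH hi cells, 97.9 and 117 CPM in TH2 cells and 39.1 and 37.3 CPM in naive cells. Slc2a3, which encodes the high-affinity transporter GLUT3, had 18.3 and 19.5 CPM in TFH hi cells, 197 and 186 CPM in TH2 cells and 61.4 and 55.9 CPM in naive cells. Both transporters were thus highest in TH2 cells, but Slc2a3 in TFH hi cells lay below naive cells (log2 ratio -1.64 ± 0.09, SE, edgeR adjusted p = 2.75e-08), where Slc2a1 lay above them (0.62 ± 0.09, adjusted p = 0.000146).

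Hexokinases trap glucose in the cell as glucose phosphate. Hk2, the inducible form, had 13.8 and 14 CPM in TFH hi cells, 31.5 and 35.1 CPM in TH2 cells and 0.804 and 0.849 CPM in naive cells. Hk1, the constitutive form, had 258 and 254 CPM in TFH hi cells, 176 and 217 CPM in TH2 cells and 148 and 146 CPM in naive cells. Hk2 was higher by 4.06 ± 0.14 on the log2 scale in TFH hi cells and by 5.32 ± 0.14 in TH2 cells, each against naive cells, while Hk1 was higher in TFH hi than in TH2 cells by 0.38 ± 0.09 (edgeR adjusted p = 0.00426).

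In upper glycolysis, Tpi1, the triose phosphate isomerase, had 72.2 and 66 CPM in TFH hi cells, 284 and 268 CPM in TH2 cells and 25.1 and 22.4 CPM in naive cells. Aldoc, an aldolase, had 9.72 and 8.54 CPM in TFH hi cells, 20.5 and 19.5 CPM in TH2 cells and 1.06 and 0.934 CPM in naive cells. The other aldolase, Aldoa, had 368 and 350 CPM in TFH hi cells, 858 and 932 CPM in TH2 cells and 306 in both naive libraries. For these isomerase and aldolase genes TH2 cells stood highest and TFH hi cells second. Gpi1, the phosphoglucose isomerase, had 511 and 502 CPM in TFH hi cells, 651 and 702 CPM in TH2 cells and 421 and 413 CPM in naive cells.

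Phosphofructokinase sets the pace of glycolysis, and its genes differed in their order. Pfkp, the platelet isoform, had 345 and 330 CPM in TFH hi cells, 224 and 226 CPM in TH2 cells and 90.1 and 89.2 CPM in naive cells. Pfkfb3, whose product makes an activator of phosphofructokinase, had 101 and 98 CPM in TFH hi cells, 41.5 and 42.1 CPM in TH2 cells and 56 and 49.7 CPM in naive cells. TFH hi cells were thus highest for both, above TH2 cells by 0.58 ± 0.07 for Pfkp (edgeR adjusted p = 2.08e-05) and 1.25 ± 0.08 for Pfkfb3 (adjusted p = 9.2e-08). Pfkl, the liver isoform, had 87.7 and 84.1 CPM in TFH hi cells, 91.9 and 106 CPM in TH2 cells and 70 and 66.5 CPM in naive cells, and Pfkm, the muscle isoform, 18.9 and 17.4, 21.7 and 23.1, and 26.5 and 24.2 CPM in those groups. Both were lower in TFH hi than in TH2 cells (log2 -0.20 ± 0.08, edgeR adjusted p = 0.0498, and -0.30 ± 0.10, adjusted p = 0.0216). The Pfkl call was lost under 7 of 10 alternatives, among them leaving out TFH hi replicate 1, TFH hi replicate 2 or TH2 replicate 2 (adjusted p up to 0.214), and the Pfkm call was lost with DESeq2 and without TFH hi replicate 2 (0.123). The lower Pfkfb3 level of TH2 against naive cells (log2 -0.34 ± 0.08) was not called without naive replicate 1 (0.0535).

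In lower glycolysis, Gapdh, the dehydrogenase often used as a reference gene, had 1328 and 1250 CPM in TFH hi cells, 2893 and 2683 CPM in TH2 cells and 589 and 583 CPM in naive cells. Pgk1, the phosphoglycerate kinase, had 181 and 177 CPM in TFH hi cells, 820 and 689 CPM in TH2 cells and 108 in both naive libraries. Pkm, the pyruvate kinase, had 900 and 885 CPM in TFH hi cells, 1838 and 1883 CPM in TH2 cells and 734 and 698 CPM in naive cells. TH2 cells were highest for all 3 (edgeR adjusted p against TFH hi cells 5.54e-07, 5.08e-09 and 4.6e-07). Eno1, an enolase, had 175 and 169 CPM in TFH hi cells, 1116 and 1101 CPM in TH2 cells and 481 and 470 CPM in naive cells, so TFH hi cells stood below both others (log2 -2.69 ± 0.08 against TH2 and -1.47 ± 0.08 against naive cells). Pgam1, the phosphoglycerate mutase, had 90.8 and 90.7 CPM in TFH hi cells, 85.9 and 96.9 CPM in TH2 cells and 39.2 and 39 CPM in naive cells. The Pgam1 groups of TFH hi and TH2 cells overlapped (log2 -0.01 ± 0.08, adjusted p = 0.916). Several glycolytic genes have near-identical pseudogene copies, and no label states how reads on copies were counted, so their levels are uncertain to that extent. Pgk1 lies on the X chromosome, and the TFH hi libraries held the Y-linked Ddx3y (82.5 and 85.2 CPM). The TH2 libraries (1246 and 1054 CPM) and the naive libraries (595 and 577 CPM) held Xist. For every member, sex therefore differs together with cell type in the RNA-seq comparisons of TFH hi cells, and these cannot be told apart. The part of sex in the Pgk1 difference was not tested.

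Lactate dehydrogenase A makes lactate from pyruvate, and the B form favours the reverse. Ldha had 441 and 450 CPM in TFH hi cells, 1058 and 1025 CPM in TH2 cells and 323 and 325 CPM in naive cells. Ldhb had 13 and 12.2 CPM in TFH hi cells, 3.82 and 4.25 CPM in TH2 cells and 20.6 and 21.5 CPM in naive cells. The A and B genes thus went opposite ways in TH2 cells, Ldha higher by 1.69 ± 0.08 and Ldhb lower (-2.38 ± 0.13) against naive cells. The lactate exporter Slc16a3 (MCT4) had 3.79 and 3.65 CPM in TFH hi cells, 32.9 and 34.5 CPM in TH2 cells and 3.22 and 2.18 CPM in naive cells. Slc16a1 (MCT1), which carries lactate both ways, had 86.1 and 82.9 CPM in TFH hi cells, 43.7 and 37.7 CPM in TH2 cells and 18.9 and 18.3 CPM in naive cells. The transporters therefore differed in their order, with Slc16a3 highest in TH2 cells and Slc16a1 highest in TFH hi cells (log2 TFH hi over TH2 1.06 ± 0.08, edgeR adjusted p = 6.4e-07). Pdk1, which inhibits pyruvate dehydrogenase, had 58.9 and 56.1 CPM in TFH hi cells, 70 and 64.7 CPM in TH2 cells and 344 and 327 CPM in naive cells. Pdk1 was the member that fell most in TFH hi cells against naive cells (log2 -2.54 ± 0.08), and its smaller difference from TH2 cells (-0.23 ± 0.08, adjusted p = 0.0246) was lost without TFH hi replicate 1 or TFH hi replicate 2 (adjusted p up to 0.152).

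The genes that sense oxygen differed by subunit. Hif1a, the alpha subunit of HIF-1, had 333 and 324 CPM in TFH hi cells, 460 and 431 CPM in TH2 cells and 66.4 and 65 CPM in naive cells. Epas1, the alpha subunit of HIF-2, had 10 and 9.68 CPM in TFH hi cells, 446 and 538 CPM in TH2 cells and 25.1 and 23.2 CPM in naive cells. Hif1a was thus high in both effector groups, while Epas1 was high in TH2 cells and below naive cells in TFH hi cells (log2 TFH hi over TH2 -5.64 ± 0.12, edgeR adjusted p = 1.59e-11, the largest fall among the members). The prolyl hydroxylase Egln3 had 82.7 and 83.1 CPM in TFH hi cells, 142 and 150 CPM in TH2 cells and 1.87 and 1.44 CPM in naive cells. It rose more than any other member in both groups against naive cells (log2 5.65 ± 0.11 in TFH hi and 6.47 ± 0.11 in TH2 cells). Egln1, the main oxygen sensor, had 77.8 and 75.7 CPM in TFH hi cells, 74.7 and 94.9 CPM in TH2 cells and 74.1 and 72.8 CPM in naive cells, and passed the test in none of the 3 comparisons.

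Of the further hypoxia targets, Ndrg1, a stress-induced gene, had 2.95 and 3.35 CPM in TFH hi cells, 74.4 and 78 CPM in TH2 cells and 11.5 and 10.2 CPM in naive cells. Bnip3, which drives removal of mitochondria, had 3.02 and 2.52 CPM in TFH hi cells, 35.8 and 31.4 CPM in TH2 cells and 3.02 and 2.49 CPM in naive cells. Ero1l, an oxidase of the endoplasmic reticulum, had 22.2 CPM in both TFH hi libraries, 240 and 216 CPM in TH2 cells and 28.8 and 26.8 CPM in naive cells. All 3 were high in TH2 cells and at or below the naive level in TFH hi cells. Vegfa, the angiogenic factor, had 2.36 and 2.32 CPM in TFH hi cells, 10.5 and 11.6 CPM in TH2 cells and 1.29 and 1.33 CPM in naive cells. Higd1a, a mitochondrial protein gene, had 30.7 and 29.5 CPM in TFH hi cells, 49.5 and 43.5 CPM in TH2 cells and 15.1 and 14.5 CPM in naive cells. Mif, a cytokine gene, had 97.3 and 87.6 CPM in TFH hi cells, 163 and 177 CPM in TH2 cells and 75.5 and 79.4 CPM in naive cells. These 3 followed the order TH2, TFH hi, naive. P4ha1, a collagen prolyl hydroxylase, was highest in naive cells and lowest in TFH hi cells, with 22.1 and 21.7 CPM in TFH hi cells, 36.8 and 34.3 CPM in TH2 cells and 49.9 and 47.5 CPM in naive cells. Ankrd37 lay at 2.52 to 3.44 CPM in all 6 libraries and passed the test in no comparison.

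**Figure D1:**
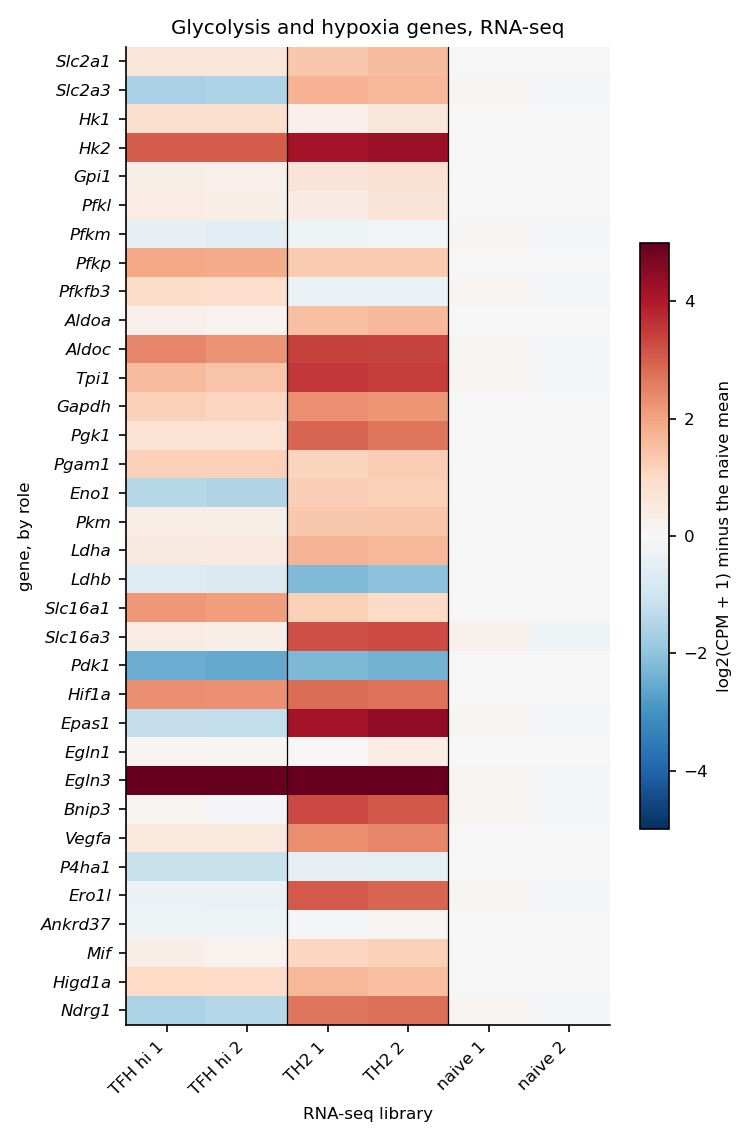
Level of the 34 genes in 6 RNA-seq libraries, as log2(CPM + 1) minus the mean of the naive libraries (colour), with genes in rows by role and libraries in columns. TH2 columns are red for most genes, TFH hi columns are red for Hk2, Aldoc, Hif1a and Egln3 and blue for Slc2a3, Eno1, Epas1 and Ndrg1. Colours are clipped at 5.

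Counted over the set, 27 of 34 members rose and 4 fell in TH2 against naive cells, where 33.9% of all 17003 tested genes rose and 31.9% fell. The 4 that fell were Pfkfb3, Ldhb, Pdk1 and P4ha1, and the 3 not called were Pfkm, Egln1 and Ankrd37. The median log2 ratio of the members was 1.52, against 0.00 for all genes. In TFH hi against naive cells, 22 members rose and 9 fell, where 29.7% of all genes rose and 27.6% fell, and the median was 0.40 against 0.00. In TFH hi against TH2 cells, 26 members fell and 5 rose, where 31% of all genes fell and 30.8% rose, and the median was -0.88 against -0.01. The 5 that rose were Hk1, Pfkp, Pfkfb3, Ldhb and Slc16a1. These comparisons share libraries, so their counts are not separate evidence. The members were also chosen with earlier results of these data known, so the set counts and medians only describe them. With close replicates, calls were common over all genes, and the counts of either direction together say little about the members. Among the smallest changes, the TFH hi to naive calls of Gpi1, Pfkl, Aldoa, Pkm, Slc16a3, Ero1l and Mif (log2 0.28, 0.33, 0.23, 0.32, 0.47, -0.32 and 0.26) were each lost when at least 1 of the 4 libraries was left out (adjusted p up to 0.36), and the count without TFH hi replicate 1 was 24 in place of 31. Markers of other cells also differed between these libraries. The 10 myeloid markers summed to 41.4 and 45.8 CPM in TFH hi, 176 and 185 in TH2 and 47.4 and 48 CPM in naive libraries, the 8 B cell markers to 283 and 289, 158 and 173, and 378 and 394 CPM, and the 6 erythroid markers to 17.8 and 18.2, 42.2 and 46, and 7.17 and 10.3 CPM. Ms4a1 was at 0 in the TH2 libraries, and the part of these markers was not tested. In bulk samples, fewer cells that express a gene and less RNA per cell cannot be told apart.

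In QuantSeq, TFH cells of all gates together held less Slc2a3, Pdk1, Epas1 and Mif than TH2 cells, and edgeR called no member higher. These were 4 of 32 tested members, all lower. DESeq2 called 6, adding Higd1a as lower (log2 -1.13, adjusted p = 0.0137) and Ldhb, at 0 counts in all TH2 libraries, as higher (adjusted p = 0.0202, against 0.122 with edgeR). Of all 14383 genes, 5.17% were called and 2.75% were called lower. The median log2 ratio of the members was -0.57, against -0.10 for all genes. Slc2a3 had 0, 2.32 and 44.8 CPM in TFH libraries (lowest, median and highest of 8), and 127, 68.3, 101 and 70.8 CPM in the 4 TH2 libraries. The groups did not overlap, and the log2 ratio was -3.58 ± 0.94 (edgeR adjusted p = 0.0139). Pdk1 had 2.78, 32.9 and 83.6 CPM in TFH libraries (lowest, median and highest), and 57.1, 110, 231 and 155 CPM in TH2 libraries. The Pdk1 ranges overlapped (log2 -2.00 ± 0.54, adjusted p = 0.019).

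Epas1 had 0.249, 10.3 and 31.6 CPM in TFH libraries (lowest, median and highest), and 65.7, 47.9, 75.7 and 20 CPM in TH2 libraries (log2 -2.36 ± 0.66, edgeR adjusted p = 0.0191). Mif had 256, 433 and 589 CPM in TFH libraries, and 987, 858, 445 and 564 CPM in TH2 libraries (log2 -0.81 ± 0.21, adjusted p = 0.00548). Both pairs of ranges overlapped, and the 4 TH2 libraries were themselves split, with replicates 1 and 2 high for Mif and replicates 3 and 4 high for Pdk1. TH2 replicates 1 and 2 held Xist (338 and 382 CPM), as did all TFH libraries (173 to 536 CPM), whereas TH2 replicates 3 and 4 held Ddx3y (100 and 28.6 CPM). Of these calls, only that of Slc2a3 held under all 19 alternatives tried (adjusted p 0.00043 to 0.0415). The Pdk1 call was lost without TH2 replicate 3 (adjusted p = 0.0555), the Epas1 call without TFH int replicate 1 (0.066) with TH2 replicates 3 and 4 alone (0.0519) or with a fit on these groups alone (0.159), and the Mif call without TH2 replicate 1 (0.11) or TH2 replicate 2 (0.0514). With TH2 replicates 3 and 4 alone, Mif differed by -0.30 (adjusted p = 0.741), and with TH2 replicates 1 and 2 alone, which share their sex with the TFH libraries, Pdk1 differed by -1.33 (0.227). A pseudogene copy, Mif-ps3, held 4765 counts over all QuantSeq libraries, so the Mif level is uncertain.

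**Figure D2:**
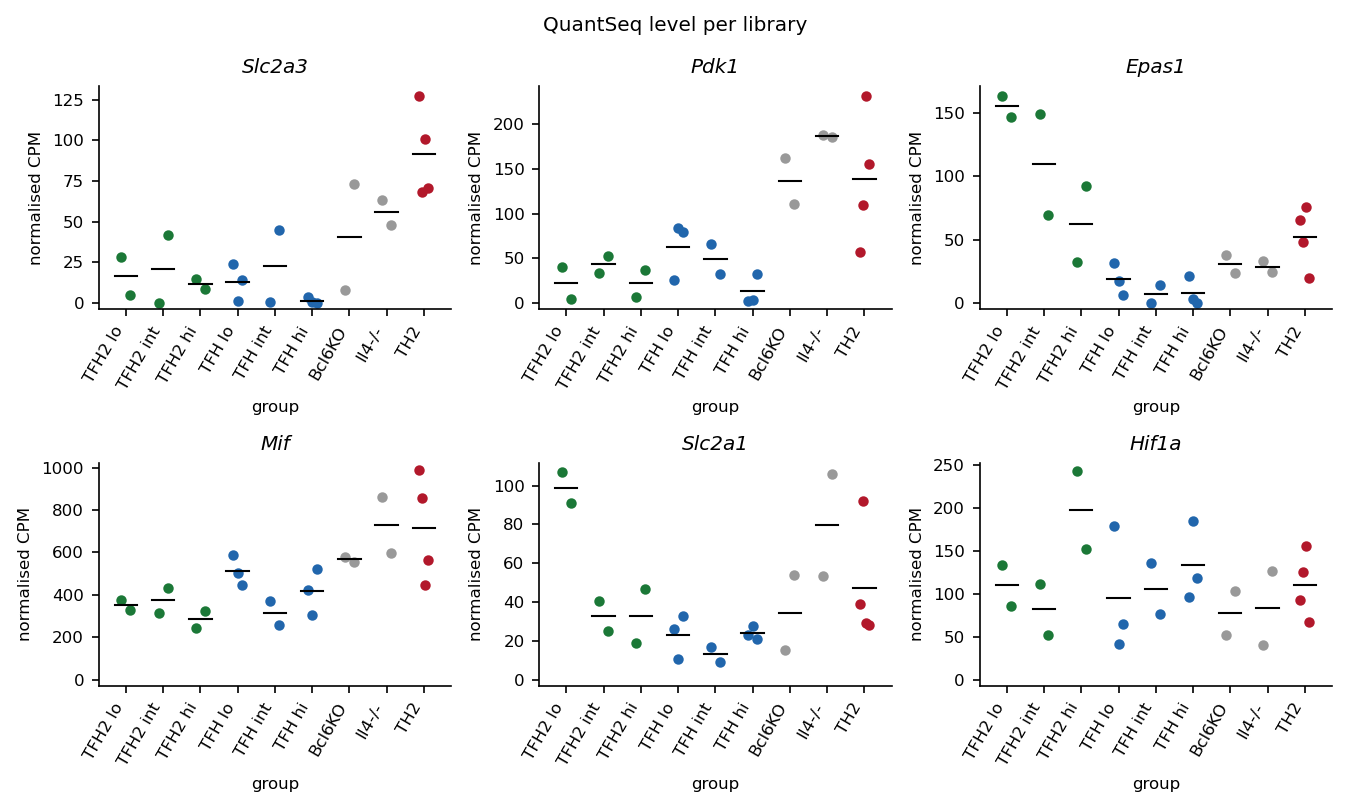
QuantSeq level per library (points) and group mean (line) in normalised CPM for 6 members, by group on the x axis. For Slc2a3 all TH2 points lie at 68.3 CPM or above and all TFH and TFH2 points at 44.8 CPM or below. Epas1 lies at 32.5 CPM or above in TFH2 libraries and at 31.6 CPM or below in TFH libraries, and the ranges of Hif1a in TFH2 and in TFH libraries overlap with that in TH2 libraries.

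Other values moved with these groups. Ribosomal protein genes took 7.14 to 10.1% of counts in TFH and TFH2 libraries and 13.4 to 15% in TH2, Bcl6KO and Il4-/- libraries. The summed level of 10 myeloid markers was 241 to 1083 CPM in TFH2 libraries, 80.9 to 196 CPM in TFH libraries and 39.4 to 94.2 CPM in TH2 libraries. All 10 were seen in TFH2 libraries, whereas in TH2 libraries 7 were at 0. The summed level of 6 erythroid markers was 384 to 1444, 37.3 to 279 and 0 to 38 CPM in those groups, with Alas2 at 0 in all 3. The summed level of 8 B cell markers was 289 to 999, 151 to 266 and 60.5 to 148 CPM, with Ms4a1 at 0 in all 3. Their part in the differences of the members was not tested.

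Hif1a, Ldha, Slc2a1 and Gapdh were called by edgeR in no QuantSeq comparison. Hif1a had 41.2, 107 and 185 CPM in TFH libraries (lowest, median and highest), and 93.1, 126, 156 and 67.5 CPM in TH2 libraries (log2 -0.01 ± 0.38). Ldha had 144, 189 and 363 CPM in TFH libraries, and 259, 267, 294 and 192 CPM in TH2 libraries (log2 -0.26 ± 0.26). Slc2a1 had 9.05, 21.9 and 33 CPM in TFH libraries, and 39.1, 91.8, 29.3 and 28.1 CPM in TH2 libraries (log2 -1.28 ± 0.65, edgeR adjusted p = 0.262). The ranges of all 3 genes overlapped. Gapdh was seen at 0 to 8.9 CPM in TFH libraries and at 27, 0, 18.4 and 0 CPM in TH2 libraries, near the limit of counting although it stood at 583 CPM or above in every RNA-seq library of the 3 groups. QuantSeq levels of Gapdh are therefore not read as expression of that gene. As a tested member, Gapdh nevertheless stays in the QuantSeq medians, mean levels and sign counts of the set. In simulated data for the comparison of TFH hi with TH2 cells, 11% of 4-fold and 2% of 2-fold changes were recovered. The changed genes were drawn at random from all tested genes, so for such genes most changes of that size would not be called in QuantSeq. The mean level of the members lies above that of all tested genes, and recovery for the members themselves was not measured.

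TFH cells of the CXCR5hi gate alone held less Slc2a3 and Pdk1 than TH2 cells, 2 of 32 members where 3.51% of all genes were called. Slc2a3 had 3.47, 1.01 and 0 CPM in the 3 TFH hi libraries (log2 -5.94 ± 1.54, edgeR adjusted p = 0.0151), and Pdk1 2.78, 3.69 and 33 CPM (log2 -3.38 ± 0.79, adjusted p = 0.00643), against the TH2 values above. Neither gene's range overlapped with that of TH2 cells. Without TFH hi replicate 2 neither was called (adjusted p = 0.14 and 0.0524), and the count was 0. DESeq2 called 7 members, adding Mif, Ndrg1, Pfkm and Epas1 as lower and Ldhb as higher. Ldhb had 15.6, 24.5 and 14.2 CPM in TFH hi libraries and 0 counts in all 4 TH2 libraries, and edgeR's adjusted p was 0.125.

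TFH2 cells of all gates held less Pdk1 and Mif than TH2 cells, 2 of 32 members, both lower, where 4.35% of all genes were called and 2.32% were called lower. Pdk1 had 5.08, 35.2 and 53.1 CPM in TFH2 libraries (lowest, median and highest of 6; log2 -2.31 ± 0.58, edgeR adjusted p = 0.011). Mif had 245, 326 and 432 CPM in TFH2 libraries (log2 -1.09 ± 0.22, adjusted p = 0.000159). Both ranges lay below those of the TH2 libraries, the Pdk1 call was lost with TH2 replicates 1 and 2 alone (adjusted p = 0.134), and the Mif call with TH2 replicates 3 and 4 alone (0.326). All TFH2 libraries held Ddx3y (48.7 to 98.7 CPM), as did TH2 replicates 3 and 4, whereas TH2 replicates 1 and 2 held Xist. Sex thus differs between the TFH2 libraries and a part of the TH2 libraries, and its part was not tested. Slc2a3 lay at 0 to 41.8 CPM in TFH2 libraries, also below all TH2 libraries, but missed the threshold (log2 -2.52 ± 0.98, adjusted p = 0.152). The median log2 ratio of the members was -0.03, against -0.13 for all genes.

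TFH2 and TFH cells differed in Epas1, the only member called between them, where 0.647% of all genes were called. Epas1 had 163 and 147 CPM in the TFH2 lo libraries, 149 and 69.7 CPM in TFH2 int and 32.5 and 92 CPM in TFH2 hi. In TFH cells it had 31.6, 17.8 and 6.67 CPM in the lo gate, 0.249 and 14 CPM in the int gate and 21.2, 3.02 and 0.25 CPM in the hi gate. Every TFH2 library lay above every TFH library (log2 3.32 ± 0.64, edgeR adjusted p = 0.00108), and the call held under all 19 alternatives (adjusted p 3.07e-06 to 0.0455). The myeloid marker Csf1r lay at 23.3 to 399 CPM in TFH2 libraries against 14.5 to 43.5 CPM in TFH libraries. Across the TFH2 gates Csf1r had 23.3 and 127 CPM in lo, 93.7 and 258 CPM in int and 254 and 399 CPM in hi. The part of myeloid RNA in the Epas1 difference was not tested. Libraries of these genotypes also differ in sex, with Ddx3y at 0 in all 8 TFH libraries and at 48.7 CPM or more in all 6 TFH2 libraries, so genotype and sex cannot be told apart here. Slc2a1 had 19.1 to 107 CPM in TFH2 libraries and 9.05 to 33 CPM in TFH libraries, and missed the threshold (log2 1.29 ± 0.59, adjusted p = 0.458).

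Between CXCR5 gates edgeR called no member. In TFH cells, hi against lo, edgeR called 0.139% of all genes. An unadjusted p under 0.05 was found for 6 of the 32 members and 872 of all 14383 genes, and DESeq2 called 1 member, Pfkm, as lower, and 83 of all genes. Pdk1 had 26.2, 83.6 and 79.7 CPM in the lo gate, 65.6 and 32.9 CPM in the int gate and 2.78, 3.69 and 33 CPM in the hi gate (log2 hi over lo -2.25 ± 0.77, edgeR adjusted p = 0.641). Without TFH hi replicate 3, edgeR called 1 member, as lower. In TFH2 cells edgeR called 0.153% of all genes, 2 members and 628 of all genes had an unadjusted p under 0.05, and DESeq2 called 1 member, Ldha, as lower in the hi gate, and 127 of all genes. Ldha had 382 and 321 CPM in the lo gate, 320 and 393 CPM in the int gate and 123 and 125 CPM in the hi gate, and the hi libraries lay below the others (log2 hi over lo -1.50 ± 0.44, edgeR adjusted p = 0.242). The difference of the gate effect between TFH2 and TFH cells was called for no member by either tool, and for 0.0139% of all genes by edgeR, with 2 members and 786 of all genes at an unadjusted p under 0.05.

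In Bcl6KO against TH2 cells edgeR called no member and 0.0209% of all genes, 4 members and 837 of all genes had an unadjusted p under 0.05, and DESeq2 called 1 member, Hk2, as lower, and 126 of all genes. Hk2 had 8.37 and 0 CPM in Bcl6KO libraries and 111, 69.7, 39.5 and 49.7 CPM in TH2 libraries (log2 -3.96 ± 1.17, edgeR adjusted p = 0.471), and the groups did not overlap. Without Bcl6KO replicate 1, edgeR called 1 member, as lower. In Il4-/- against TH2 cells neither tool called a member, 1 member and 768 of all genes had an unadjusted p under 0.05, and edgeR called 0.0695% of all genes. Slc2a3 had 8.04 and 73.2 CPM in Bcl6KO libraries and 63.5 and 48.2 CPM in Il4-/- libraries, and Pdk1 162 and 111 CPM and 188 and 185 CPM. For Pdk1 these values lay within the range of the TH2 libraries. Bcl6KO libraries held Xist (218 and 220 CPM) and Il4-/- libraries Ddx3y (82.6 and 72.2 CPM). Each group thus differs in sex from a part of the TH2 libraries, and the part of sex was not tested.

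The comparison of TFH hi with TH2 cells was made in both assays on different libraries, from TH2 cells of different genotypes. Of the 32 members tested in both, 24 had the same sign (75%), 19 of them negative and 5 positive. Over all 11917 genes tested in both, 58.8% had the same sign. As the members were chosen with earlier results of these data known, these shares are descriptive. Slc2a3 was called lower in both, with log2 ratios of -5.94 ± 1.54 in QuantSeq and -3.35 ± 0.09 in RNA-seq. Pdk1 was also called lower in both, but with unlike log2 ratios of -3.38 in QuantSeq and -0.23 in RNA-seq. The alternatives under which these calls were lost are given above. Eno1 (-2.69 ± 0.08), Ero1l (-3.36 ± 0.09) and Ndrg1 (-4.61 ± 0.11) were called lower in RNA-seq, and Ldhb (1.64 ± 0.13) higher, and none of these 4 was called by edgeR in QuantSeq. Egln3, Slc16a3, Vegfa and Tpi1, lower in RNA-seq, had positive ratios in QuantSeq that were not called. Egln3 had 131, 102 and 64.4 CPM in the QuantSeq TFH hi libraries and 55.2, 30.6, 26.6 and 57.3 CPM in TH2 libraries, with no overlap.

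**Figure D3:**
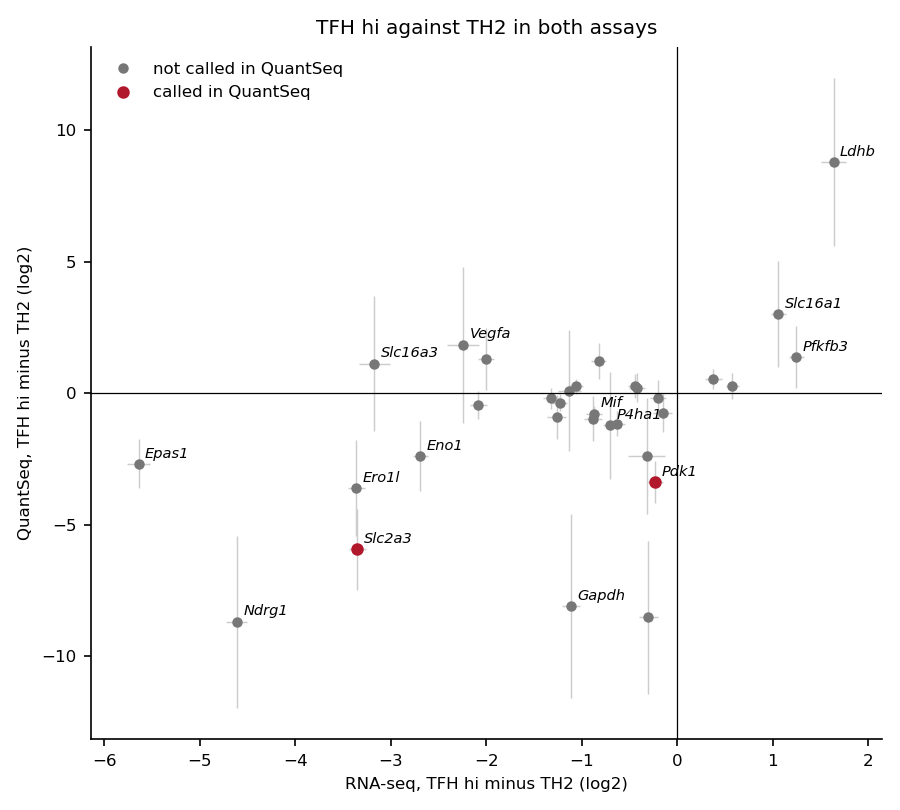
Log2 ratio of TFH hi over TH2 cells in RNA-seq (x axis) and QuantSeq (y axis) for the 32 members tested in both, with standard errors as bars. Slc2a3 and Pdk1 (red) were called in QuantSeq, and 19 points lie below 0 on both axes.

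The mean of log2(CPM + 1) over the tested members puts the groups side by side within each assay. In RNA-seq it was 5.77 ± 0.04 in TFH hi cells, 6.92 ± 0.02 in TH2 cells and 5.29 ± 0.05 in naive cells (SD, n = 2 each), while the mean over all tested genes lay between 3.56 and 3.68 in these 6 libraries. In QuantSeq TFH2 cells it was 4.81 ± 0.06 in the lo gate, 4.73 ± 0.21 in the int gate and 4.63 ± 0.16 in the hi gate (n = 2 each). In QuantSeq TFH cells it was 4.58 ± 0.11 in the lo gate (n = 3), 4.33 ± 0.04 in the int gate (n = 2) and 4.17 ± 0.14 in the hi gate (n = 3). It was 4.59 ± 0.31 in Bcl6KO cells (n = 2), 4.70 ± 0.21 in Il4-/- cells (n = 2) and 4.87 ± 0.29 in TH2 cells (n = 4). The 3 TFH hi libraries (4.06 to 4.32) and both TFH int libraries (4.30 and 4.36) lay below all TH2 libraries (4.44 to 5.09). The TFH lo libraries (4.45 to 4.66) and the TFH2, Bcl6KO and Il4-/- libraries overlapped with TH2 libraries. The mean over all tested genes lay at 3.19 to 3.44 in TFH, 3.07 to 3.56 in TFH2 and 2.99 to 3.32 in TH2 libraries.

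**Figure D4:**
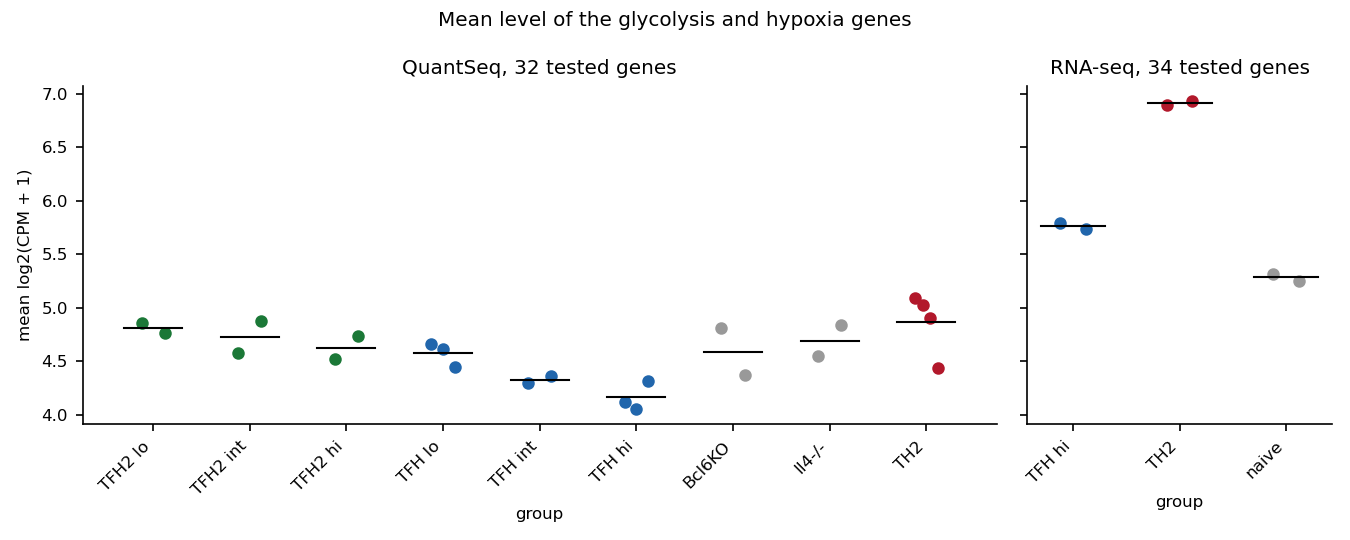
Mean of log2(CPM + 1) over the tested members per library (points) and per group (line), for QuantSeq on the left and RNA-seq on the right. TH2 libraries are highest in RNA-seq (6.90 and 6.93). In QuantSeq the 3 TFH hi libraries (4.06 to 4.32) and both TFH int libraries (4.30 and 4.36) lie below the 4 TH2 libraries (4.44 to 5.09). Values of the assays rest on different gene counts and are not compared with each other.

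The pair of RNA-seq libraries whose TFH markers mostly go against their labels also differed in these genes. The 6 RNA-seq libraries above hold no count on mitochondrial genes and this pair does, so the pair is set only against itself, with no replicate and no test. In the library labelled TFH2, 11 of 34 members were at least 2-fold higher than in the library labelled TH2 on the log2(CPM + 1) scale and 0 were at least 2-fold lower, where 6.75% of all genes were higher and 9.58% lower by that much. Slc2a3 read 163 CPM in the library labelled TFH2 against 41.7 CPM in that labelled TH2, Pdk1 183 against 55, Eno1 788 against 324, Ero1l 179 against 67.2 and Ndrg1 73.9 against 9.15 CPM. Epas1 read 80.1 against 134 CPM and Egln3 61.4 against 108 CPM. The library with the higher Cxcr5, Bcl6 and Tox2 thus held less Slc2a3, Eno1, Ero1l and Ndrg1.

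Further genes of the pathway were taken from 5 lists. In QuantSeq, of 22 other glycolysis genes (14 tested), 10 pyruvate dehydrogenase genes (9 tested) and 7 pentose phosphate genes (7 tested) edgeR called none in any comparison. Of 30 other hypoxia genes (24 tested) and 10 regulators (10 tested), 4 genes were called. Txnip, which limits glucose uptake, had 2.68, 34.7 and 182 CPM in TFH libraries (lowest, median and highest), 11.4, 41.2 and 99 CPM in TFH2 libraries and 697, 612, 486 and 513 CPM in TH2 libraries. Txnip was lower in both, by a log2 ratio of -3.90 ± 0.68 in TFH (edgeR adjusted p = 0.00276) and -3.55 ± 0.72 in TFH2 cells (0.00951), with no overlap, and also in TFH hi cells (-4.60 ± 1.01, 0.0192). Ddit4, an inhibitor of mTOR signalling, had 52.7, 103 and 127 CPM in TFH libraries and 266, 193, 210 and 255 CPM in TH2 libraries (log2 -1.35 ± 0.30, adjusted p = 0.00105), and was also lower in TFH hi cells (-1.31 ± 0.40, 0.0405).

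Myc, a driver of glycolytic genes in activated T cells, was at 0 in 6 of 8 TFH libraries and at 8.65 and 5.67 CPM in the others, against 41.1, 7.48, 22.5 and 7.02 CPM in TH2 libraries (log2 -6.59 ± 2.09, edgeR adjusted p = 0.0423). The ranges overlapped. The TFH2 libraries held 1 Myc count in all, against 206 in TH2 libraries, a ratio of 0.00289 (7.28e-05 to 0.0163, 95% exact interval for counting error only, adjusted p of the fit 0.0285). Hmox1, the heme oxygenase that macrophages express strongly, was at 0 in all TH2 libraries. With a floor of 3 counts over those libraries, it was at least 23.1-fold higher in TFH (adjusted p = 0.0433) and at least 151-fold higher in TFH2 libraries (0.00696), groups that also held more of the myeloid markers given above.

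In RNA-seq, 19 of 29 tested other hypoxia genes rose and 5 fell in TH2 against naive cells, and 5 rose and 18 fell in TFH hi against TH2 cells, while 12 rose and 11 fell in TFH hi against naive cells. Over all genes 33.9% rose and 31.9% fell, 30.8% rose and 31% fell, and 29.7% rose and 27.6% fell in these comparisons. Of the 18 tested other glycolysis genes 7 rose and 7 fell in TH2 against naive cells and 7 rose and 5 fell in TFH hi against TH2 cells. Pentose phosphate genes rose in 6 of 7 cases in TH2 against naive cells, and 2 rose and 5 fell in TFH hi against TH2 cells. Of 10 pyruvate dehydrogenase genes 2 rose and 2 fell in TH2 against naive cells and 1 rose and 3 fell in TFH hi against TH2 cells, and of 10 regulators 3 rose and 6 fell, and 3 rose and 5 fell. In TFH hi against naive cells 6 other glycolysis genes rose and 5 fell, 1 pyruvate dehydrogenase gene rose and 4 fell, 2 pentose phosphate genes rose and 0 fell, and 2 regulators rose and 5 fell. Stc2, a secreted glycoprotein gene, had 3.17 and 3.65 CPM in TFH hi cells, 50.8 and 52.1 CPM in TH2 cells and 0.129 and 0.113 CPM in naive cells. P4ha2, a collagen prolyl hydroxylase, had 0 counts in both TFH hi libraries, 19.2 and 18.7 CPM in TH2 cells and 5.69 and 5.52 CPM in naive cells, so with a floor of 3 counts over the TFH hi libraries it was at least 294-fold lower in TFH hi than in TH2 cells. Txnip had 121 CPM in both TFH hi libraries, 462 and 446 CPM in TH2 cells and 904 and 902 CPM in naive cells, and Myc 17.9 and 18.2, 110 and 123, and 163 and 161 CPM in those groups. Txnip and Myc were lowest in TFH hi cells in RNA-seq too (log2 TFH hi over TH2 -1.91 ± 0.08 and -2.70 ± 0.09, edgeR adjusted p = 2.2e-09 and 2.52e-10). Slc2a6, another sugar transporter gene (-3.34 ± 0.16), Plin2 (-2.13 ± 0.11), Anxa2 (-1.47 ± 0.07), Hilpda (-2.01 ± 0.11), Car12 (-4.09 ± 0.23) and Hif3a (-3.91 ± 0.26) were also lower in TFH hi than in TH2 cells. Against naive cells, Bhlhe40, Anxa2, Nfil3 and Hmox1 were higher in TFH hi cells by 6.85 ± 0.12, 4.73 ± 0.10, 4.62 ± 0.11 and 4.29 ± 0.13 on the log2 scale.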

How the data were processed

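The 34 members, the 5 lists of related genes and the marker lists were chosen with earlier results of these data known. The submitters' processing notes name Bowtie 0.12.2, STAR 2.7.0c, featureCounts 1.6.0 and the builds mm10, GRCm38.p6 and mm9. The labels do not say which of them produced the QuantSeq or the RNA-seq tables. The deposited files hold raw counts, per gene in QuantSeq and per transcript in RNA-seq, as their values show. QuantSeq gene identifiers were named from a table of identifiers and symbols (179 had none and held 0.0293% of counts), and RNA-seq transcripts from the GENCODE M21 annotation (82916 of 95883 matched, and the others, with 14.7% of counts, were left out). In RNA-seq each gene is its transcript with the highest total count. A second gene named Aldoa, without QuantSeq signal, was left out.

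Each assay was fitted with edgeR 4.0.16 in R 4.3.3 (TMM factors, filterByExpr with a minimum count of 10 and a minimum total of 15, robust quasi-likelihood F test, two-sided). The 22 QuantSeq libraries formed 9 groups with 13 residual degrees of freedom, and the 8 RNA-seq libraries 5 groups with 3. P-values were adjusted by Benjamini-Hochberg over all tested genes of each of 12 comparisons, with 0.05 as the threshold for a call. Levels are CPM on TMM-normalised totals, log2 ratios have standard errors. DESeq2 1.42.0 and the other alternatives are in the closing section. The tests were checked on simulated data. RNA-seq replicate pairs differed by more than counting noise (chi-square per gene 2.65 to 21.4, QuantSeq 35.1 to 56), so none was counted as 1 library. All members are accounted for. Those called anywhere, with Hif1a, Slc2a1, Ldha and Gapdh, are given by library, and of the related lists at most 10 called genes a comparison by adjusted p, of which some are left out.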

Additional observations from a re-analysis of the deposited data

Results flagged for a closer look

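In the 4 QuantSeq TH2 libraries, the only group large enough for the test, 32 members were examined for a library far from the others by Dixon's criterion, which chance exceeds in about 1 group of 20. Pfkfb3 had 26.6 CPM in 1 library, with the next at 4.08 CPM. Ndrg1 had 50.5 CPM in 1 library, with the next at 9.2 CPM. Vegfa had 5.45 CPM and Ankrd37 0.68 CPM in 1 library each, with 0 in the other 3. None of these genes was called between TH2 cells and another QuantSeq group by edgeR. A difference in gate effect between TFH2 and TFH cells was called for no member.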

How the results depend on the processing

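No paired analysis was possible because the labels number all samples in 1 run and give no replicate number that groups share. In QuantSeq TFH against TH2 cells, 2 members were called with TH2 replicates 3 and 4 alone, in place of 4, and DESeq2 called 6 (5 lower and 1 higher). In TFH hi against TH2 cells DESeq2 called 7 in place of 2, and leaving out a library gave 0 to 2. In TFH2 against TH2 cells, TH2 replicates 1 and 2 alone and TH2 replicates 3 and 4 alone each left 1 in place of 2. DESeq2 called 1 in place of 0 between gates in TFH cells, between gates in TFH2 cells and in Bcl6KO against TH2 cells. For Bcl6KO, TH2 replicates 1 and 2 alone also gave 1. Leaving out a library gave 0 to 1 between gates in TFH cells and for Bcl6KO. In RNA-seq the counts stayed within 24 and 32 under every alternative (31 in each comparison as reported). A library left alone in its group is assumed to vary like the others. No called member changed direction. For single members, 145 of the QuantSeq results under an alternative kept their call and 12 lost it, and in RNA-seq 888 kept and 42 lost it. The cause was not tested. Over all genes, DESeq2 called 935 for TFH hi against TH2 cells (505 by edgeR), 1098 for TFH2 against TH2 (626), 1124 for TFH against TH2 (743), 274 for TFH2 against TFH (93), 83 between gates in TFH (20), 127 in TFH2 (22), 35 for the gate effect by genotype (2), 126 for Bcl6KO (3) and 83 for Il4-/- (10). Adding 5 in place of 1 before the log raised the mean level in every group, to 4.98 in place of 4.36 in TFH and 5.25 in place of 4.73 in TFH2 cells. Vegfa, Ankrd37, Ldhb and Slc16a3 each had QuantSeq libraries at 0, so small differences in them are not detectable at this depth.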
